A study of Mus musculus with 6 samples.

Results

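The 10 genes that encode the subunits of the hypoxia-inducible factors (HIFs) and the enzymes that control them by oxygen were examined in tumor tissue of the mouse lung. Their rows were found by gene symbol (Hif1a, Epas1, Hif3a, Arnt, Arnt2, Egln1, Egln2, Egln3, Vhl and Hif1an), and all 10 were among the 31130 genes of the tables. The study asked how interstitial pneumonia alters lung cancer and its microenvironment, and it took up the HIF-1 pathway after its RNA sequencing. In the LC group (lung cancer alone, 3 tumors) and the IP + LC group (lung cancer with interstitial pneumonia, 3 tumors), wild-type female C57BL/6 mice of 6 to 8 weeks received Lewis lung carcinoma (LLC) cells in the left lung on day 14, and tumor tissue was taken on day 21. LLC is a carcinoma line that arose in this mouse strain. The mice of the IP + LC group had first been given bleomycin, an agent used to bring on lung injury and fibrosis, at 2.0 mg/kg through the oropharynx, and those of the LC group saline. The bleomycin model and the tumor line are each a single one, and the labels do not state that each tumor came from its own mouse, so the p-values measure the spread between these tumors.

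Each library held the RNA of 1 piece of whole tumor tissue, counted as unique molecular identifiers (UMIs, 1 per captured RNA molecule). Totals ran from 592733 to 1379759 UMIs in the LC libraries and from 1336919 to 1631066 in the IP + LC libraries. A count of 0 allows up to 3 UMIs, which is 5.06 CPM (UMIs scaled to a common total of 1e+06) in the smallest library, LC replicate 1, and 1.84 to 2.24 CPM in the others. LC replicate 1 also stood apart from the other 5 libraries on the second principal component, at 66.2 against -27.5 to -6.75, and the members' fold changes and ratios are given with and without it. The tissue was labelled as lung tumor, and all 6 libraries held markers of lung cells beside those of proliferating cells. In bulk tissue, fewer cells of a type and less RNA per cell cannot be told apart, which holds for every level below.

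As background, a HIF is a pair of an oxygen-regulated alpha subunit (HIF-1α from Hif1a, HIF-2α from Epas1, HIF-3α from Hif3a) and a stable beta subunit (from Arnt or Arnt2). When oxygen is present, the prolyl hydroxylases PHD1, PHD2 and PHD3 (from Egln2, Egln1 and Egln3) modify the alpha subunit, and the von Hippel-Lindau protein (from Vhl) binds the modified form and marks it for destruction. The asparaginyl hydroxylase FIH (from Hif1an) blocks the binding of coactivators to it. Control is thus mostly at the level of the protein, which was not measured here, while these data count the mRNA. In the lung, Epas1 is known for its high expression in endothelium and alveolar type 2 cells, and Egln3 is a well-known target of HIF itself.

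HIFs bind DNA at a short core written ACGTG or GCGTG, and both were searched on both strands in the 250 bases before each annotated start (RefSeq starts, build GRCm38.p6). Of the 10 genes, 9 were in the table, with 10 windows because Egln2 has 2 starts. A match was in 7 of the 10 windows and in 38.6% of all 32851 windows of that length. The windows of Hif1a, the member that was higher in the IP + LC group, and of Egln3, a hydroxylase gene whose call changed with LC replicate 1, the filter and the method, are shown with the matches in capitals. A match is a description of letters, not a bound site.
Hif1a (chr12:73907617-73907866, plus strand): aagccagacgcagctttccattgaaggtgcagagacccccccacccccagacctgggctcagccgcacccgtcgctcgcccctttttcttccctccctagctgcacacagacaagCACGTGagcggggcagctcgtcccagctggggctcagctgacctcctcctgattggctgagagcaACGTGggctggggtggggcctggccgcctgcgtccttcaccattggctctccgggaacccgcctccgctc
Egln3 (chr12:54203875-54204124, minus strand): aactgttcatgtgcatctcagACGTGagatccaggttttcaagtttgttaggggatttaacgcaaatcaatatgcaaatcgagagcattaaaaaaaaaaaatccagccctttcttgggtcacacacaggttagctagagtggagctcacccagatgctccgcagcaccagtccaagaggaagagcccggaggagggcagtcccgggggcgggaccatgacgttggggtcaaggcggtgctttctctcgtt
The Hif1a window held 3 matches, of which 2 overlap on opposite strands in the palindrome CACGTG, and it lies inside the annotated gene body but in no annotated exon. The Egln3 window held 1 match, near its upstream end, and it touches no annotated exon or gene body of Egln3. The windows of Hif3a and Egln1 held 2 matches each, that of Arnt held 1, and those of the 2 starts of Egln2 held 4 and 1. Those of Arnt2, Vhl and Hif1an held 0.

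The alpha subunits moved in opposite directions. Hif1a was higher and Epas1 lower in IP + LC than in LC tumors, and these were the only members past an adjusted p of 0.1 of the 8 that passed the filter on low counts. Of all 11240 genes tested, 36.4% were called, 16.8% as higher and 19.6% as lower, so the members' share of calls was not above that of other genes. The groups did not overlap for 2 of the 8 (43.1% of all tested genes), 1 of them higher (21.6%) and 1 lower (21.5%). The 8 members had a median log2 fold change of 0.28, against 0.02 over all tested genes.

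Hif1a (GRCm38 chr12:73901375-73947530, plus strand) was counted at 75.8, 63.5 and 61.9 CPM in LC replicates 1 to 3 and at 111, 143 and 91.5 CPM in the IP + LC replicates. Every IP + LC tumor lay above every LC tumor, and IP + LC replicate 2 was the highest. The mean was 67.0 ± 7.61 CPM in LC and 115 ± 26.0 CPM in IP + LC tumors (SD, n = 3 each), from 44 to 81 and from 126 to 245 UMIs per library. The log2 fold change was 0.79 (SE 0.23, 95% interval 0.28 to 1.31, adjusted p = 0.0322 by the quasi-likelihood test of edgeR, adjusted after Benjamini and Hochberg). It was 0.90 without LC replicate 1 (adjusted p = 0.00157). The call was lost without LC replicate 2 (0.75, adjusted p = 0.121), without IP + LC replicate 2 (0.62, adjusted p = 0.148) and when all libraries were thinned to the smallest total (0.56, adjusted p = 0.141). Of the exon bases of Hif1a, 8.11% are shared with other genes. The antisense gene Gm15283 shares 330 bases and held at most 6 UMIs in any library. The gene Gm49321 on the same strand shares 148 bases and was not among the counted genes. All shared bases lie at least 9730 genomic bases from the 3′ end of Hif1a. The strand setting of the counting is not given in the sources used here.

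Epas1 (chr17:86753700-86833410, plus strand) was counted at 420, 808 and 750 CPM in the LC and at 208, 115 and 197 CPM in the IP + LC libraries. The groups did not overlap, with LC replicate 1 the lowest of its group. The mean fell from 659 ± 209 to 173 ± 50.8 CPM, a log2 fold change of -1.93 (SE 0.32, 95% interval -2.66 to -1.20, adjusted p = 0.00365, edgeR). With LC replicate 1 left out it was -2.17 (adjusted p = 5.34e-07). No exon base of Epas1 is shared with another annotated gene.

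Hif3a (chr7:17031507-17062427, minus strand), whose product lacks the full activating domain of the other alpha subunits, was at 0 UMIs in all 6 libraries. It was therefore not detectable at this depth and not tested.

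**Figure D1:**
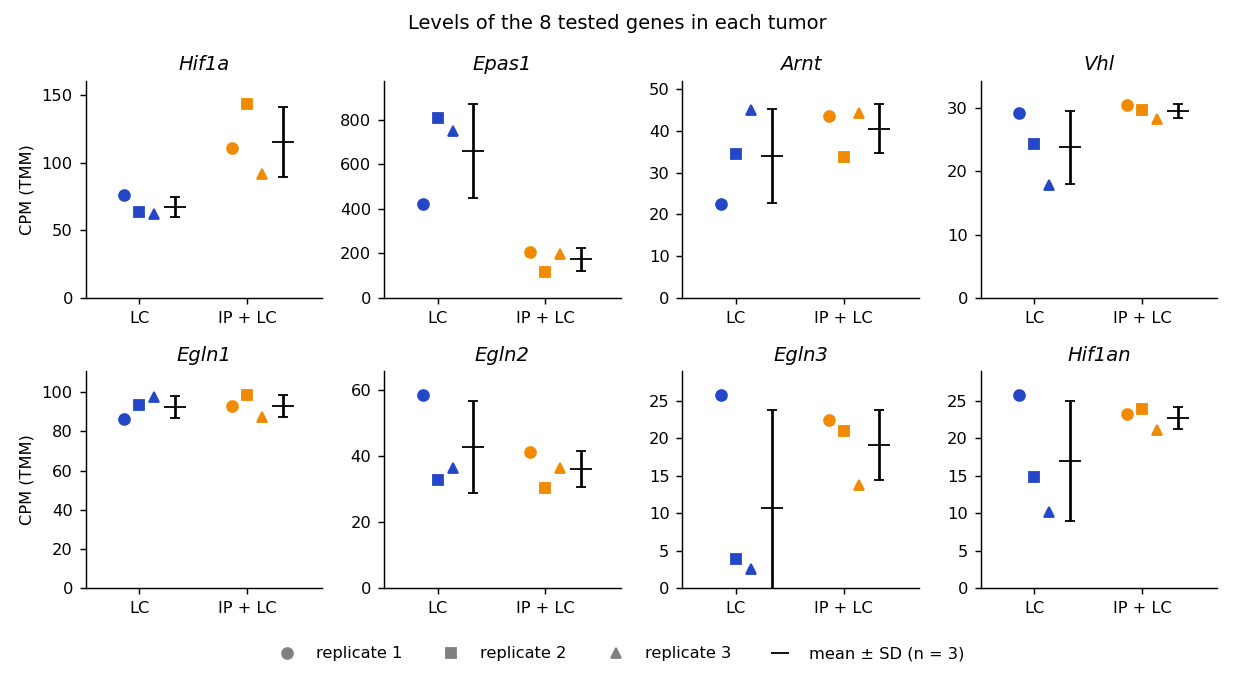
CPM after TMM scaling (vertical axis, linear from 0, own scale per gene) of each of the 8 tested members in the 3 LC and 3 IP + LC tumors. Points are single tumors, and bars give the mean and SD, with the lower end for Egln3 in LC tumors cut at 0. The groups do not overlap for Hif1a (61.9 to 75.8 against 91.5 to 143 CPM) and Epas1 (420 to 808 against 115 to 208 CPM).

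**Figure D2:**
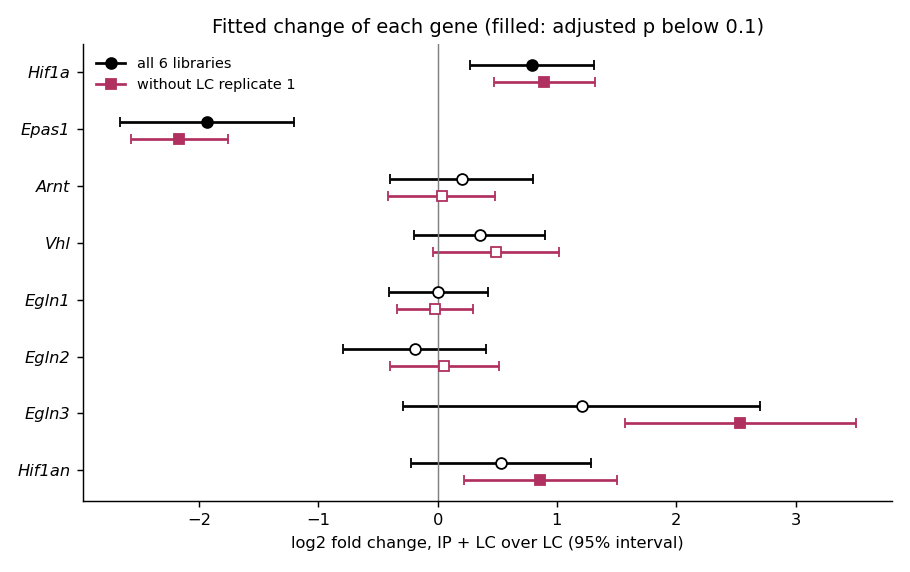
Fitted log2 fold change of IP + LC over LC (horizontal axis) of the 8 tested members, with its 95% interval. Filled points passed an adjusted p of 0.1. The interval of Hif1a (0.28 to 1.31) and that of Epas1 (-2.66 to -1.20) exclude 0, and that of Egln3 is the widest (-0.29 to 2.70).

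Because both alpha genes moved, the make-up of the alpha pool differed between the groups. UMIs from 3′ tags count a molecule once whatever its length, so these counts were compared between genes without dividing by length. Hif1a took 15.3%, 7.28% and 7.62% of the UMIs of Hif1a and Epas1 together in the LC libraries, and 34.8%, 55.4% and 31.7% in the IP + LC libraries. The lowest IP + LC share was thus above the highest LC share, and the exact binomial 95% intervals of these 2 libraries, 27.2% to 36.6% (IP + LC replicate 3) and 11.3% to 19.96% (LC replicate 1), did not overlap. The mean share was 10.1 ± 4.52% in LC and 40.6 ± 12.9% in IP + LC tumors (SD, n = 3 each). Epas1 had 5.55, 12.7 and 12.1 UMIs for each Hif1a UMI in LC tumors and 1.88, 0.804 and 2.15 in IP + LC tumors. IP + LC replicate 2 was the only library in which Hif1a exceeded Epas1. The summed level of both genes was 726 ± 202 CPM in LC and 288 ± 30.5 CPM in IP + LC tumors.

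**Figure D3:**
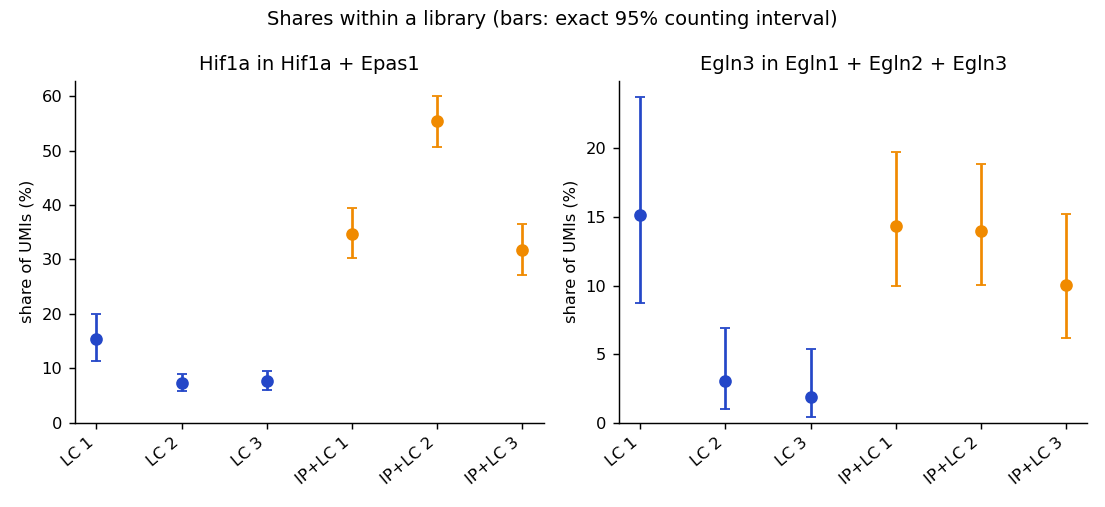
Share of UMIs (percent, vertical axis from 0) in each of the 6 libraries, with exact binomial 95% intervals that cover counting error only. The left panel gives Hif1a among Hif1a and Epas1, from 7.28% to 15.3% in LC and from 31.7% to 55.4% in IP + LC tumors, and the right panel Egln3 among the 3 prolyl hydroxylase genes, where LC replicate 1 (15.2%) lies beside the IP + LC tumors.

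Epas1 was not alone in its fall. Of 12 endothelial markers, all 12 were lower in IP + LC tumors, against 19.6% of all tested genes, and their summed level was 2192 to 3879 CPM in LC and 654 to 879 CPM in IP + LC tumors. For alveolar type 2 cells, 8 of 9 markers were lower, with sums of 36008 to 45147 and 6589 to 11857 CPM. Expressed as a percent of the endothelial sum, Epas1 was 19.2%, 20.8% and 21.8% in the LC and 26.3%, 17.6% and 22.4% in the IP + LC libraries. These percentages overlapped between the groups, with means of 20.6 ± 1.34% and 22.1 ± 4.37%. As a percent of the type 2 sum, Epas1 was 1.58 ± 0.373% in LC and 1.82 ± 0.124% in IP + LC tumors, again with overlap. No marker of either list was at 0 in all libraries, and the part of these cells in the fall of Epas1 was not tested. Markers of other resident cells were lower too, namely 6 of 7 of type 1 cells (3112 to 5366 against 1016 to 1410 CPM), 8 of 8 of airway epithelium (50306 to 59394 against 3567 to 7538 CPM), 7 of 7 of smooth muscle (775 to 1224 against 240 to 328 CPM) and 8 of 8 of alveolar macrophages (1715 to 2147 against 234 to 472 CPM). Of 6 tested neutrophil markers, 3 were lower (821 to 1957 against 264 to 344 CPM), and of 8 fibroblast markers 5 were lower and 2 higher (1758 to 2229 against 1754 to 1849 CPM). By the mean over the 6 libraries, the most abundant markers of these lists were Calcrl, Sftpc, Ager, Scgb1a1, Acta2, Chil3, S100a9 and Col3a1. Epas1 as a percent of the type 1 and of the smooth muscle sum overlapped between the groups as well. It was 17.001 ± 7.89% of the type 1 sum in LC and 13.8 ± 2.47% in IP + LC tumors. Of the smooth muscle sum it was 63.7 ± 8.60% in LC and 57.6 ± 8.80% in IP + LC tumors. The overlap was thus not particular to the endothelial and type 2 sums.

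**Figure D4:**
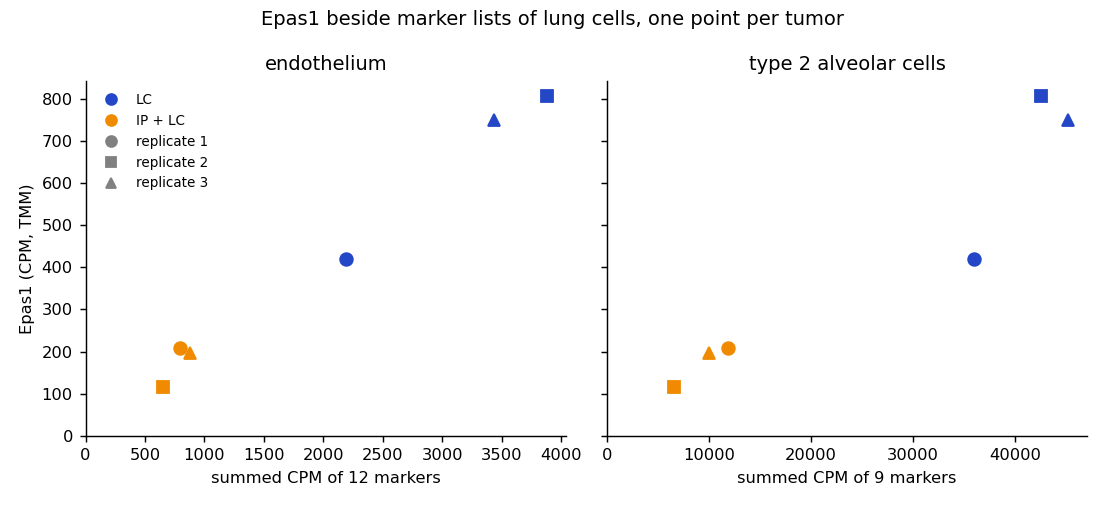
Epas1 (CPM, vertical axis) against the summed CPM of the 12 endothelial and the 9 type 2 markers (horizontal axes), all linear from 0, with 1 point per tumor. The 3 IP + LC tumors lie at the lower left of both panels, at 115 to 208 CPM of Epas1 and 654 to 879 CPM of endothelial markers.

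Hif1a was also set beside markers of macrophages and of proliferation. Of 10 macrophage markers, 4 were higher in IP + LC tumors (16.8% of all tested genes), 0 lower (19.6%) and 6 not called. Their sums, to which C1qa added most over the 6 libraries, overlapped between the groups, at 701 to 2552 CPM in LC and 2466 to 3115 CPM in IP + LC tumors. Of 8 proliferation genes, 7 were higher (16.8% of all tested genes were), with sums of 122 to 601 and 998 to 1141 CPM, to which Top2a added most over the 6 libraries. Hif1a was 2.97%, 6.64% and 8.83% of the macrophage sum in LC and 4.50%, 4.59% and 3.27% in IP + LC tumors, and 12.6%, 51.9% and 49.7% against 9.73%, 12.98% and 9.17% of the proliferation sum. Both percentages overlapped between the groups, with LC replicate 1 apart from the other LC tumors. The part of these cells in the higher Hif1a level was not tested.

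Of the beta subunits, Arnt (chr3:95434388-95497240, plus strand), the common partner of the alpha subunits, was counted at 22.4, 34.5 and 44.9 CPM in LC and at 43.5, 33.9 and 44.3 CPM in IP + LC tumors. The groups overlapped, at 33.9 ± 11.3 and 40.6 ± 5.81 CPM, with a log2 fold change of 0.20 (95% interval -0.40 to 0.80, adjusted p = 0.604, edgeR). With LC replicate 1 left out it was 0.04 (adjusted p = 0.903). Arnt2 (chr7:84246278-84410176, minus strand), a partner best known from the nervous system, had 0 to 1 UMIs per library and was not tested. For each Arnt UMI there were 22.2, 25.3 and 18.1 UMIs of Hif1a and Epas1 in LC tumors and 7.33, 7.62 and 6.51 in IP + LC tumors, a mean of 21.8 ± 3.61 against 7.15 ± 0.578. These ratios did not overlap, and Epas1 was the larger term of the sum in 5 of the 6 libraries.

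Among the prolyl hydroxylases, no gene passed the main test with all 6 libraries, though Egln3 passed the limit under other settings. Egln1 (chr8:124908587-124949324, minus strand), which encodes PHD2, the main oxygen sensor of HIF-1α in most cells, was at 86.1, 93.2 and 97.5 CPM in LC and at 92.8, 98.6 and 87.1 CPM in IP + LC tumors. The values interleaved, with means of 92.3 ± 5.74 and 92.9 ± 5.75 CPM, a log2 fold change of 0.01 and a 95% interval of -0.41 to 0.42 (adjusted p = 0.987, edgeR). The sign of this small value turned under other scalings, DESeq2, thinning or the loss of 1 library. Egln2 (chr7:27158658-27166802, minus strand), which encodes PHD1, was at 58.5, 32.9 and 36.4 CPM in LC and at 41.3, 30.4 and 36.3 CPM in IP + LC tumors. LC replicate 1 was the highest of the 6, and the log2 fold change of -0.19 (95% interval -0.79 to 0.41, adjusted p = 0.623) became 0.06 without it (adjusted p = 0.849).

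Egln3 (chr12:54178981-54203860, minus strand), which encodes PHD3, was counted at 15, 5 and 3 UMIs in LC and at 31, 36 and 19 UMIs in IP + LC tumors. On the scale of CPM these were 25.8, 3.92 and 2.54 against 22.5, 21.01 and 13.8. The 3 IP + LC tumors lay above LC replicates 2 and 3, while LC replicate 1 lay above all of them. With all libraries the log2 fold change was 1.21 (SE 0.66, 95% interval -0.29 to 2.70, adjusted p = 0.207, edgeR), and without LC replicate 1 it was 2.54 (SE 0.45, 95% interval 1.57 to 3.50, adjusted p = 0.000322). With all 6 libraries Egln3 also passed the limit in edgeR without the filter on low counts (1.32, adjusted p = 0.0142) and in limma voom (1.88, adjusted p = 0.0396). Without LC replicate 1, 57% of 11748 tested genes were called. LC replicate 1 also had 2552 CPM of macrophage and 601 CPM of proliferation markers, against 701 to 956 and 122 to 125 CPM in the other LC tumors, and the part of these cells in its Egln3 level was not tested. Egln3 made up 15.2%, 3.01% and 1.86% of the UMIs of the 3 prolyl hydroxylase genes in LC and 14.4%, 14.01% and 10.1% in IP + LC tumors. The summed level of the 3 genes was 146 ± 21.7 CPM in LC and 148 ± 9.85 CPM in IP + LC tumors.

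Hif1an (chr19:44562850-44576274, plus strand), the gene of FIH, showed a like arrangement at low counts. It was at 25.8, 14.9 and 10.2 CPM in LC (15, 19 and 12 UMIs) and at 23.2, 23.9 and 21.1 CPM in IP + LC tumors (32, 41 and 29 UMIs). LC replicate 1 was again the highest, the groups overlapped, and the log2 fold change was 0.53 (95% interval -0.22 to 1.28, adjusted p = 0.268, edgeR). Without LC replicate 1 it was 0.86 (SE 0.30, adjusted p = 0.0268).

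Vhl (chr6:113623959-113631633, plus strand), the substrate-binding subunit of the ubiquitin ligase, was at 29.3, 24.3 and 17.8 CPM in LC and at 30.5, 29.8 and 28.3 CPM in IP + LC tumors. LC replicate 1 lay between the IP + LC values, and the means were 23.8 ± 5.76 and 29.5 ± 1.09 CPM. The log2 fold change was 0.35 (95% interval -0.20 to 0.90, adjusted p = 0.315, edgeR) and 0.49 without LC replicate 1 (adjusted p = 0.112). Without that library 4 members were called, Hif1a, Egln3 and Hif1an as higher and Epas1 as lower, in a fit that called 57% of all genes tested.

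The balance of Hif1a against its regulators was read within each library, where scaling plays no part. A set of 6 log2 ratios of UMIs (with 0.5 added to each count) was compared by an exact two-sided permutation test, for which 3 against 3 tumors cannot give a p below 0.1. Hif1a to Epas1 was -3.24 ± 0.68 in LC and -0.56 ± 0.77 in IP + LC tumors, a difference of 2.67 or 6.37-fold (exact p = 0.1, adjusted p = 0.2). There were 0.444, 0.488 and 0.453 Hif1a UMIs for each UMI of the 3 prolyl hydroxylase genes in LC tumors and 0.708, 0.953 and 0.667 in IP + LC tumors. The LC values lay close together and below all IP + LC values, and the log2 difference of 0.73, or 1.65-fold, had an exact p of 0.1 (adjusted p = 0.2). Epas1 had 2.46, 6.21 and 5.50 UMIs for each hydroxylase UMI in LC and 1.33, 0.767 and 1.43 in IP + LC tumors, a log2 difference of -1.95 (exact p = 0.1, adjusted p = 0.2). The log2 ratio of Hif1a to Arnt differed by 0.47 (exact p = 0.4), that to Vhl by 0.43 (exact p = 0.2) and that to Hif1an by 0.25 (exact p = 0.4), with adjusted values of 0.4, 0.3 and 0.4. With 1 library left out these ran from 0.17 to 0.82 for Arnt, from 0.27 to 0.57 for Vhl and from -0.0080 to 0.51 for Hif1an. When that library was LC replicate 1, they were 0.82, 0.36 and -0.0080, and the differences of Hif1a to Epas1, Hif1a to the hydroxylases and Epas1 to the hydroxylases were 3.06, 0.70 and -2.36. With all 6 libraries, 3 of the 6 ratios had the smallest p the design allows. No adjusted p could fall below 0.1 with this design, so the test could not call any ratio.

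The order of the levels differed between the groups. In LC tumors the order was Epas1, Egln1, Hif1a, Egln2, Arnt, Vhl, Hif1an, Egln3, Arnt2 and Hif3a, and Epas1, Egln1, Hif1a and Egln2 did not overlap with each other. From Egln2 to Egln3, each gene overlapped with the next. In IP + LC tumors Epas1, Hif1a and Egln1 came first, each overlapping with the next. Arnt, Egln2 and Vhl followed without overlap with Egln1 but with overlap among neighbours. Hif1an came next without overlap with Vhl, and it overlapped with Egln3.

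Other genes around the HIF system were read from lists named by their known role. Of 6 partners of Vhl in the ubiquitin ligase and its activation, 1 was higher and 0 lower (16.8% and 19.6% of all tested genes), with a median log2 fold change of -0.10. The one that rose was Cul2, the scaffold of the ligase (log2 fold change 0.63, adjusted p = 0.0423, edgeR), while Nedd8, the modifier that activates such ligases and the gene of the list with the highest mean over the 6 libraries, was at 260 ± 95.6 CPM in LC and 205 ± 6.08 CPM in IP + LC tumors (adjusted p = 0.383). Of 8 coactivators and their inhibitors, 5 were tested and 1 was higher, a share near that of all tested genes, with a median of 0.46. This was Cited2, which competes with HIF-1α for p300, at 101 ± 24.3 against 158 ± 22.4 CPM (log2 fold change 0.66, adjusted p = 0.0711). The call of Cited2 was lost with upper quartile scaling, when thinned, and without LC replicate 2 or 3 or any 1 IP + LC replicate. That of Cul2 was lost with DESeq2, when thinned, and without LC replicate 2 or IP + LC replicate 2 or 3.

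Of 19 other regulators of the stability of the alpha subunit, 13 were tested, 6 were higher and 0 lower, with a median of 0.56, while 16.8% of all tested genes were higher and 19.6% lower. The SUMO protease gene Senp1 rose from 12.6 ± 4.76 to 47.2 ± 6.995 CPM (log2 fold change 1.85, adjusted p = 0.00294), and Siah2, a ubiquitin ligase that acts on prolyl hydroxylases, from 13.1 ± 2.28 to 31.8 ± 9.41 CPM (1.32, adjusted p = 0.0153). The chaperone genes Hsp90ab1 (1.32, adjusted p = 0.00258) and Hspa8 (1.16, adjusted p = 0.0188) were higher as well. For Rack1, a scaffold protein tied to oxygen-independent turnover and the gene of the list with the highest mean over the 6 libraries, the log2 fold change was 0.40 (adjusted p = 0.233). Hsp90ab1, Hspa8 and Rack1 belong to families with near-identical copies, so their counts are uncertain.

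Of 11 other genes of the bHLH-PAS family, to which the HIF subunits belong, 4 were tested. Over all tested genes 36.4% were called, 16.8% as higher and 19.6% as lower, which stands beside each list of this paragraph. The dioxin receptor gene Ahr (log2 fold change -1.07, adjusted p = 0.0131) and the clock gene Arntl (-1.14, adjusted p = 0.0207) were lower, and Arntl2 was higher (1.74, adjusted p = 0.0219) from at most 4 UMIs per LC library. For Clock, the highest by its mean over the 6 libraries, the log2 fold change was -0.57 (adjusted p = 0.271), and the median of the 4 was -0.82. Ascorbate keeps the iron of the hydroxylases reduced, and 3 of 7 genes of its transport and recycling were tested, with a median of -0.31. Gsto1, which reduces dehydroascorbate, fell from 336 ± 31.9 to 195 ± 27.4 CPM (log2 fold change -0.78, adjusted p = 0.0209), while Glrx was higher (0.73, adjusted p = 0.0707) and the ascorbate transporter gene Slc23a2 stood at -0.31 (adjusted p = 0.315). Of 12 related hydroxylases that act mainly on collagen and other proteins, 10 were tested, with a median of 0.48. Among these 10, 2 were higher and 1 lower, a share of calls not above that of all tested genes. Plod3 (0.54, adjusted p = 0.0935) and Jmjd6 (0.72, adjusted p = 0.0566) were higher, and Asph was lower (-0.70, adjusted p = 0.0853). None of these hydroxylases was called with DESeq2, when thinned, or without LC replicate 2 or 3 or IP + LC replicate 1 or 2.

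Of 27 genes known to be induced by hypoxia, 23 were tested, 6 were higher and 6 lower, with a median of 0.09. Calls over all tested genes were likewise divided, at 16.8% higher and 19.6% lower. Ankrd37 and P4ha1 of this list also stand in the lists of stability regulators and related hydroxylases. The higher genes included Bhlhe40, a transcriptional repressor (log2 fold change 1.46, adjusted p = 0.00312), Slc2a1, the glucose transporter GLUT1 (1.20, adjusted p = 0.0210), and the glycolytic genes Pgk1 (1.39, adjusted p = 0.0243) and Ldha (1.05, adjusted p = 0.0219), both of which have near-identical copies. The lower genes included Hilpda, a lipid droplet protein (-2.45, adjusted p = 0.000716), the angiogenic factor Vegfa (-1.49, adjusted p = 0.00354) and the mitophagy receptor Bnip3l (-1.06, adjusted p = 0.00437). Vegfa went from 243 ± 63.5 to 87.0 ± 13.9 CPM and Slc2a1 from 28.0 ± 6.46 to 64.9 ± 21.3 CPM.

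**Figure D5:**
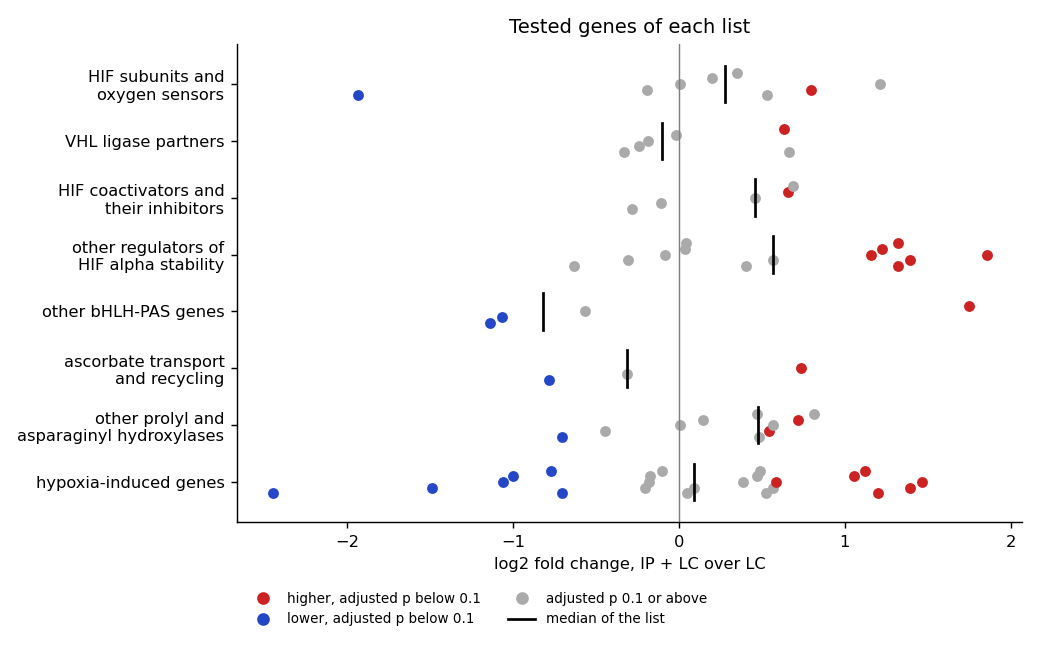
Log2 fold change of IP + LC over LC (horizontal axis) of each tested gene in the 8 lists, the 10 HIF genes included, with 1 point per gene, called genes marked and the list's median drawn. The stability regulators had 6 genes called higher and 0 lower, and the hypoxia-induced genes 6 in each direction, while 16.8% of all tested genes were called higher and 19.6% lower.

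The genes whose pattern over the 6 libraries was most like those of the alpha subunits were also listed, among 7858 other genes of at least 20 CPM. For Hif1a they were Ccnk, Trp53, Usp19, Nid1 and Sys1, with Pearson r of 0.987 to 0.993 on log2(CPM + 1). For Epas1 they were Dram1, Adh1, Sult1d1, Car8 and Aldh1a1, with r of 0.997 to 1.000. These are descriptions over 6 libraries in 2 groups that share depth and tissue make-up, and without LC replicate 1 the same rule kept 0 of the 5 genes for Hif1a and 2 of the 5 for Epas1, although the r of the first 5 stayed at or above 0.990 and 0.998. Hif1a and Epas1 themselves had r of -0.965.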

How the data were processed

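RNA of 3 LC and 3 IP + LC tumors was made into libraries by bulk RNA barcoding and sequencing, which tags 3′ ends by oligo-dT priming. The deposited values are UMI counts per gene, without normalization. Per the submitters' processing notes and the methods, the authors used UMI-tools 1.1.1 (every different UMI counted), Trim Galore 0.6.7, HISAT2 2.2.1 and featureCounts 2.0.1 on GRCm38. The annotation release and the strand setting are not given in the sources used here.

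From the counts, edgeR 4.0.16 in R 4.3.3 was run with TMM scaling, filterByExpr (minimum count 10, minimum total 15, 3 libraries) and the quasi-likelihood test without a block, with Benjamini-Hochberg adjustment over 11240 genes and a limit of 0.1, as the study set it. The test was checked on simulated data. CPM values are after TMM scaling. Intervals of fold changes come from the edgeR fit and include the spread between tumors, while binomial intervals of shares and the limits of 3 UMIs cover counting error only. A gene rose or fell where it passed the limit. Ratios were tested by exact permutation, and alternatives included DESeq2 1.42.0 and voom of limma 3.58.1. Positions and exon overlaps came from GENCODE M21, and promoter windows from RefSeq.

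The members and the lists were chosen with earlier results of these data known. All 10 members were named, and from each list the genes past the limit with at least a 2-fold change (at most 4 per direction) and the gene with the highest mean over the 6 libraries. From each marker list only the sum and the gene of highest mean were named, and for Hif1a and Epas1 the 5 genes of highest correlation. Cul2, Glrx, Slc23a2, Jmjd6 and Asph were named outside the rule, to spell out short counts, after their values were seen. Levels as a percent of marker sums were added after seeing the data. No pairing of the tumors by equal replicate numbers was seen, and these numbers were used only in an alternative.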

Additional observations from a re-analysis of the deposited data

How the results depend on the processing

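The fall of Epas1 kept its direction and its call in all 15 alternatives, with log2 fold changes of -2.17 to -1.68 and adjusted p of 4.49e-09 to 0.0289. Hif1a stayed higher in all alternatives, at 0.62 to 0.96 when 1 library was left out and 0.56 when thinned. Egln3 passed the limit without the filter (1.32), with voom (1.88) and without LC replicate 1, its range being 0.67 to 2.54 with 1 library left out, and that of Hif1an 0.24 to 0.86. The sign of Arnt turned when thinned (-0.22), that of Egln1 with RLE scaling (-0.0087), upper quartile scaling (-0.057), DESeq2 (-0.010) and thinning (-0.30), and the ranges with 1 library left out were -0.024 to 0.076 for Egln1, -0.36 to 0.056 for Egln2 and -0.0080 to 0.51 for the log2 ratio of Hif1a to Hif1an. The log2 ratio of Hif1a to Vhl was 0.058 when thinned.

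The number of members called was 1 when thinned and 1 to 4 with 1 library left out, and that of all genes was 2413 when thinned and 2265 to 6691. Thinning leaves fewer UMIs. The cause of the other changes was not tested. Scaling by library size alone gave 2520 genes higher and 1800 lower, against 1885 and 2203 in the main test, and moved the median of all genes to 0.18. Partners of Vhl called were 2 without the filter, with the strict filter or with voom, 0 with DESeq2 or thinned, and 0 to 3 with 1 library left out. Coactivators called were 0 with upper quartile scaling or thinned, 2 without the filter and 0 to 2 with 1 library left out. For ascorbate genes the count was 1 with upper quartile scaling, thinned or with the replicate block, and 0 to 4. For the other hydroxylases it was 5 by library size alone, 1 with the replicate block, 0 with DESeq2 or thinned, and 0 to 5. It was 2 to 5 for bHLH-PAS genes and 7 to 14 for hypoxia-induced genes with 1 library left out. Where a list had 0 calls in edgeR or DESeq2, 0 to 3 of its genes had an unadjusted p below 0.05 there.

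Deviations of libraries with the same replicate number correlated at 0.0260, -0.120 and 0.112. Those with unlike numbers ran from -0.142 to 0.126. No pairing by number was seen, which does not show that there was none. With the replicate block 3410 genes and the same 2 members were called, Hif1a at 0.77 (adjusted p = 0.0662) and Epas1 at -1.92 (adjusted p = 0.0149). With 3 tumors per group and 3 to 15 UMIs of Egln3 per LC library, depth limits what can be said of the low members, and Hif3a and Arnt2 could not be tested.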
